A study of Mus musculus with 4 samples.

Results

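Cells of the pancreatic duct epithelium were sought among the cells of mouse islet preparations profiled by droplet single-cell RNA sequencing. They were chosen by their own measured counts: a cell needed at least 1 unique molecular identifier (UMI, a tag that counts 1 captured mRNA molecule) of 3 or more of Krt19, Spp1, Sox9, Cftr, Muc1 and Ambp, including Krt19 or Sox9. It also had to hold no UMI of Ptprc (a leukocyte gene) or Cdh5 (an endothelial gene), and under 5% of its UMIs could come from the insulin genes Ins1 and Ins2. Of 15416 cells that passed the filters on depth and mitochondrial share, 113 met this rule, a share of 0.733% (95% exact binomial interval 0.604 to 0.881). The 10 genes named in the rule are given below as a description, because they chose the cells.

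The islets came from male mice of C57BL6/N background. WT mice carried wild-type Pax4, and in their HH littermates both copies of the endogenous Pax4 gene encoded R200H, so that every cell of the body, duct cells included, carried the knock-in. WT SCD and HH SCD mice ate a standard chow diet and were 12 weeks old, while WT HFD and HH HFD mice had eaten a high-fat diet for 4 weeks and were 16 weeks old. Each of the 4 groups had 1 library, made from the pooled, trypsin-digested islets of 2 to 3 mice, so genotype cannot be told apart from library, and diet cannot be told apart from age or library. No test between groups was made, and every interval below is at the 95% level and covers counting error only. Pax4 is listed at 0 in every barcode of all 4 libraries. Whether this is a measured level cannot be read from the files, so it gives no check of the genotype labels. Summed levels below are in CPM, a gene's UMIs scaled to the summed UMIs of its cell class in that library.

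The 4 libraries held 5123, 4665, 5307 and 7123 barcodes and 87472976, 79712168, 68011082 and 104810105 UMIs in WT SCD, HH SCD, WT HFD and HH HFD, the order used below wherever 4 values are given. Of these barcodes 3521, 3554, 2992 and 5349 were kept, that is 68.7%, 76.2%, 56.4% and 75.1%. In all, 50 barcodes occurred in more than 1 library, and 0 of them belonged to the 113 cells.

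Ducts are the epithelial tubes of the exocrine pancreas. They carry the enzymes of the acinar cells to the gut and add to them a fluid rich in bicarbonate, which they secrete through chloride channels, bicarbonate exchangers and water channels. Duct cells bear a primary cilium, are joined by tight junctions and are filled with simple-epithelium keratins such as Krt19. In the embryo, Sox9-positive duct-like epithelium gives rise to the endocrine cells through Neurog3-positive progenitors, and pieces of duct are often carried along when islets are isolated.

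The 113 cells fell into 2 kinds that did not overlap in their hormone content. In 79 cells the genes Ins1, Ins2, Iapp, Gcg, Sst, Ppy and Pyy together made up 0.424% to 5.17% of the UMIs (median 1.63%), and in the other 34 they made up 13.5% to 57.4% (median 27.7%). The first kind held Krt19, a keratin of simple epithelia, in all 79 cells (median 15 UMIs, range 1 to 196) and Spp1, which encodes the secreted glycoprotein osteopontin, in all 79 (median 101 UMIs, range 21 to 715). Sox9, the transcription factor of the duct lineage, was counted in 73 of them, Ambp in 71, Muc1 in 69 and Cftr, the chloride channel of the duct, in 5. These 79 cells are called duct-like below. The split was set after the values were seen and is given without a test.

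The 34 hormone-rich cells met the rule in another way. Krt19 had a UMI in 1 of them, and 29 passed on Spp1, Sox9 and Ambp, each with a median of 1 UMI per cell. Somatostatin (Sst) was the leading hormone in 31 and Ppy in 3. Across all kept cells with 5% or more of UMIs from Sst, 1285 in number, Sox9 had a UMI in 12.8%, 15.2%, 12.6% and 5.72%, and Krt19 had a UMI in 1 of the 1285. Cells rich in insulin held Sox9 in 0.134% to 0.603%. The label of duct cells therefore goes against the counts of most of these 34 cells, and no cell type name is given to them. The exception is 1 cell of HH HFD led by Ppy, with 16329 UMIs, which held all 6 rule genes. It had 66 UMIs of Spp1, 3 of Sox9, 2 of Muc1 and 1 of Krt19. Its doublet score was among the highest of its library, and whether its droplet held 1 cell was not tested. The plot of hormone share against the sum of Krt19 and Spp1 shows the gap between both kinds.

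**Figure D1:**
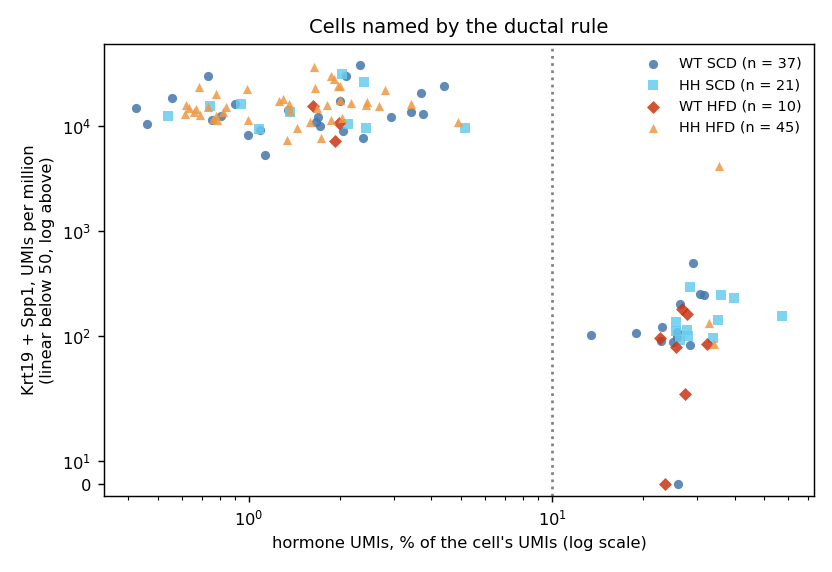
Each point is 1 of the 113 cells, placed by the share of its UMIs that came from 7 hormone genes (x axis, percent) and by the sum of Krt19 and Spp1 (y axis, CPM), with both axes as labelled and colour for the library. The 79 duct-like cells lie at or under 5.17% hormone UMIs and the 34 hormone-rich cells at or over 13.5%, with no cell between.

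At the edge of the rule, 3 of the 79 duct-like cells and 31 of the 34 hormone-rich cells held exactly 3 of the 6 rule genes. Just outside it lay 66 cells with 2 rule genes that met every other condition, and all 66 were hormone-rich. The insulin limit removed 13 cells that met the gene conditions, with 6.09% to 51.3% insulin UMIs, while the highest value among the cells taken was 4.57%. Scrublet, a doublet caller, marked 0 of the 113 cells, but it marked under 0.5% of the barcodes in both HFD libraries and so did not work there. When the barcodes with the highest doublet scores were taken in the number that the cell load predicts, 3 of the 113 cells were among them. Of these, 2 were duct-like cells of WT HFD, and the other was the HH HFD cell led by Ppy that held all 6 rule genes.

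The share of kept cells that met the rule was compared between genotypes within each diet. There were 37 of 3521 cells in WT SCD (1.05%, interval 0.741 to 1.45), 21 of 3554 in HH SCD (0.591%, 0.366 to 0.902), 10 of 2992 in WT HFD (0.334%, 0.160 to 0.614) and 45 of 5349 in HH HFD (0.841%, 0.614 to 1.12). HH minus WT was -0.460 percentage points in SCD and 0.507 in HFD, and the counting intervals of both genotypes overlapped in SCD. The duct-like cells numbered 24, 10, 3 and 42, shares of 0.682% (0.437 to 1.01), 0.281% (0.135 to 0.517), 0.10% (0.0207 to 0.293) and 0.785% (0.566 to 1.06). Their difference between HH and WT was -0.400 points in SCD and 0.685 points in HFD. WT HFD thus had the fewest duct-like cells and HH HFD the most, and 1 library stands behind each value. The hormone-rich cells numbered 13, 11, 7 and 3.

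**Figure D2:**
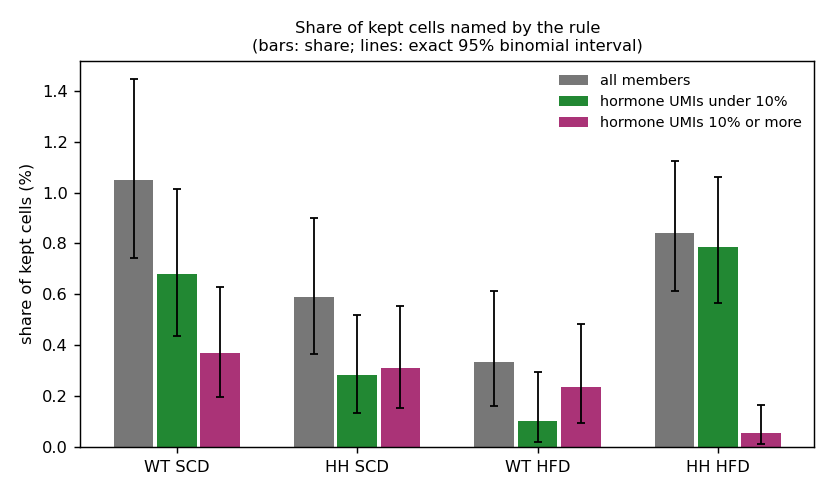
Share of kept cells that met the rule (percent, y axis) in each of the 4 libraries (x axis), for all members and for the duct-like and hormone-rich kinds, with exact binomial intervals for counting error. The duct-like share was 0.682%, 0.281%, 0.10% and 0.785% in WT SCD, HH SCD, WT HFD and HH HFD, with 1 library per group.

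Duct-like cells were shallower than beta cells. Their median UMI counts were 7534, 9656, 5879 and 7732 (range 2629 to 46888 over all), against 5320, 4650, 6652 and 4270 in endothelial cells and 26250, 25896, 27669 and 23878 in cells with 5% or more insulin UMIs. Median mitochondrial shares of the duct-like cells were 5.40%, 5.93%, 6.52% and 4.47%. Insulin RNA made up a median of 1.45%, 1.40%, 1.60% and 1.18% of their UMIs, and 1.97%, 1.21%, 1.55% and 1.41% of those of endothelial cells, which do not transcribe insulin. Summed over cells, the duct-like kind gave 305073, 135295, 17977 and 470577 UMIs. The WT HFD sum came from 3 cells and is the least precise of the 4, since 3 counts in it amount to 167 CPM.

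The first check was a duct marker that the rule did not use. Wfdc2 (ENSMUSG00000017723, GRCm38 chr2:164562413-164568510), which encodes a secreted protease-inhibitor-like protein of ductal and airway epithelia, was counted in 19 of 24, 10 of 10, 3 of 3 and 38 of 42 duct-like cells. Its summed level there was 351 CPM (287 to 424), 488 (377 to 621), 501 (229 to 950) and 480 (420 to 547), against 0.353, 0.142, 0.353 and 0.275 CPM in all other kept cells. Among cells with 5% or more insulin UMIs, which are deeper, it had a UMI in 6 of 2322, 1 of 2241, 1 of 1618 and 10 of 3271. The hormone-rich kind held it in 1 of 13, 2 of 11, 0 of 7 and 1 of 3 cells. With each cell thinned to 1000 UMIs, which left out no cell, it was seen in 37.5%, 20%, 33.3% and 35.7% of duct-like cells, and in at most 0.0431% of insulin-rich cells. The counting intervals of the 4 duct-like levels overlapped.

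UMI sums of the members were compared with sums of all other kept cells of the same library by edgeR's quasi-likelihood test, with the library as a block and Benjamini-Hochberg adjustment over all genes tested. This compares cell classes within 4 libraries and says nothing of genotype or diet. Genes whose counts run with the rule genes in single cells are not independent of the rule, and the insulin limit of the rule bears on every beta cell gene found lower, so the values below describe the chosen cells. Cells with a UMI of Ptprc or Cdh5 were barred from the members but stayed among the other kept cells. Falls of leukocyte and endothelial genes are read with that limit, although 0 cells that met the gene conditions were lost to it. Of 14129 genes, 1466 (10.4%) were higher in the 113 cells and 1998 (14.1%) lower at an adjusted p under 0.05, with a median log2 fold change of -0.20 over all genes. The same test of the duct-like cells alone, in the 3 libraries with 10 or more of them, called 2075 of 14545 genes higher (14.3%) and 3656 lower (25.1%), with a median of -0.43. Without the WT SCD library the members' counts were 821 higher and 1042 lower, and those of the duct-like cells 1357 and 2276. The 1376 genes higher in both tests were 93.9% of the members' calls and 66.3% of those of the duct-like cells.

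A 2nd non-endocrine class served as a comparison with low hormone content. Endothelial cells, 172, 147, 166 and 382 in number, were chosen by 3 or more of Pecam1, Cdh5, Plvap, Flt1, Kdr and Esam, including Cdh5. Against them, 1521 of 7644 genes (19.9%) were higher in the members and 1728 (22.6%) lower, and 1671 of 7706 (21.7%) and 1845 (23.9%) in the duct-like cells. There were 915 genes higher in duct-like cells than in both the other kept cells and the endothelial cells, which is 44.1% of the first list and 54.8% of the second. The log2 fold changes below are those of all the members against all other kept cells unless stated, on edgeR's TMM scale, while the CPM beside them are of the duct-like cells on total UMIs, so a fold change is not the ratio of the CPM beside it.

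The genes with the largest rises, after the rule genes were left out, were led by Aqp5, Dmbt1 and Onecut1. Wfdc2 rose by 8.83 ± 0.41 on the log2 scale in the members (SE, n = 4 libraries; edgeR adjusted p = 2.42e-09) and by 9.48 ± 0.26 in the duct-like cells. Aqp5, a water channel, rose by 10.59 ± 0.48 in the members, and its CPM in duct-like cells was 49.2, 126, 111 and 227. Onecut1 (HNF6, a transcription factor needed for duct formation; chr9:74861921-74891781) rose by 10.02 ± 0.38 in the members. In the duct-like cells it rose by 10.26 ± 0.40, and its level there was 131, 81.3, 334 and 285 CPM, with a UMI in 16 of 24, 8 of 10, 2 of 3 and 33 of 42 duct-like cells. Ces1d, a carboxylesterase (chr8:93166068-93197838), rose by 9.16 ± 0.36 in the members and by 9.71 ± 0.26 in the duct-like cells, where its level was 554, 473, 723 and 548 CPM. In the other kept cells each of these genes was at 0.421 CPM or less.

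Dmbt1, a scavenger-receptor glycoprotein of mucosal surfaces, rose by 10.41 ± 0.63, but its 226, 1050, 0 and 1184 CPM came from 3, 3, 0 and 13 duct-like cells. Ptgds, a prostaglandin D synthase, rose by 9.29, Ppp1r1b, the phosphatase inhibitor DARPP-32, by 9.24 and the acute phase gene Crp by 9.02. Habp2, an extracellular protease, rose by 9.93, Ankrd1, a nuclear ankyrin-repeat protein, by 9.89 and ccdc198 by 8.75. Against endothelial cells leading genes were Ces1d (11.12 ± 0.45), the epithelial annexin Anxa13 (10.66 ± 0.48; 269, 392, 389 and 457 CPM) and Ppp1r1b (9.94). Also high were the trefoil peptide Tff2 (9.84), Onecut1 (9.83), the ciliary gene Pkhd1 (9.63) and Fermt1 (9.59), an adaptor of integrins. Among the genes with the largest falls were endothelial genes and the beta cell genes Ucn3 and Mafa. Emcn, Esm1 and Kdr had 0 UMIs in the 113 cells, Flt1 fell by 7.88, Ucn3 fell by 8.01 and Mafa fell by 7.09. The endothelial genes Kdr and Flt1 also chose the endothelial comparison cells.

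**Figure D3:**
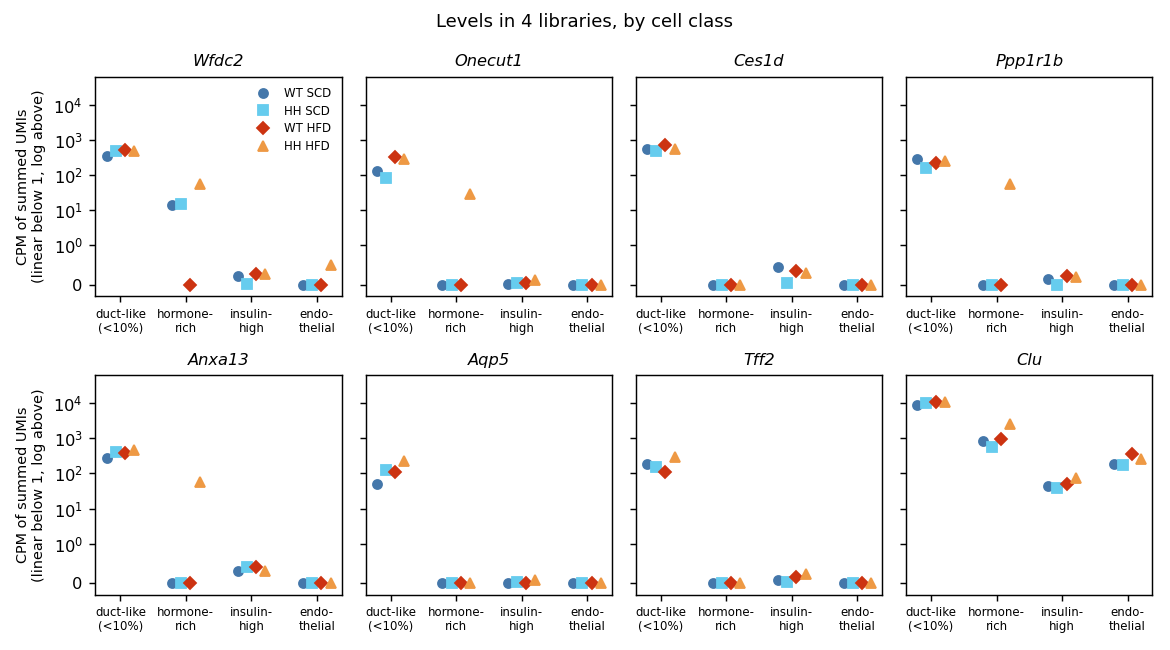
Summed levels (CPM, axis linear below 1 and log above) of Wfdc2, Onecut1, Ces1d, Ppp1r1b, Anxa13, Aqp5, Tff2 and Clu in duct-like, hormone-rich, insulin-rich and endothelial cells, with 1 point for each of the 4 libraries and no error bars. Wfdc2 lies at 351 to 501 CPM in duct-like cells and at 0.496 CPM or less in insulin-rich and endothelial cells.

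Transcription factors of the duct lineage were mostly higher. Of 12 on the list, 9 rose in the members, 1 fell and 2 did not pass the test (median 2.60), and in the duct-like cells 8 rose and 2 fell (median 3.12). Against endothelial cells 7 of 9 tested were higher. The epithelial ETS factor Ehf was at 338, 296, 111 and 344 CPM (log2 fold change 3.56) and its relative Elf3 at 230, 229, 445 and 242 CPM (2.76). Onecut2 (3.85) rose too. Hes1, a Notch target, rose by 2.45 ± 0.32 in the members and by 3.06 ± 0.21 in the duct-like cells, where its level was 233, 244, 167 and 283 CPM. Pdx1, which adult beta cells express strongly, fell by 1.25. Foxa2, shared by duct and endocrine cells, had a log2 fold change of -0.44 in the members and did not pass.

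Keratins and epithelial junction genes rose as a group. Of 13 tested, 12 rose and 1 did not pass (median 2.44), and in the duct-like cells 14 of 15 rose (median 3.14). The paired keratins Krt8 (6874, 8973, 3115 and 2344 CPM) and Krt18 (5313, 6800, 2281 and 2278 CPM) rose by 2.45 and 2.44, and in both genes the SCD libraries were higher than the HFD libraries. The adhesion protein Epcam (2295, 1900, 1335 and 1326 CPM) rose by 2.36. The tight junction genes Cldn3 (1416, 1500, 834 and 1005 CPM) and Cldn4 rose by 3.55 and 2.67. Against endothelial cells 11 of 12 were higher and 1 lower, with a median of 6.61. Epcam, Krt8 and Krt18 are also made by endocrine cells, which form most of the other kept cells.

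Genes of bicarbonate, chloride and water transport were more mixed. Of 14 tested, 7 rose, 1 fell and 6 did not pass (median 1.43), and 8 rose and 1 fell in the duct-like cells. The sodium pump subunit Atp1b1 (1419, 1700, 1279 and 1953 CPM) rose by 1.94, and the sodium-bicarbonate cotransporter Slc4a4 by 2.70. Potassium channel genes Kcnn4 (4.90) and Kcne3 (6.90 ± 0.40) rose, as did carbonic anhydrase Car2 (6.36; 111, 88.7, 167 and 176 CPM) and the calcium-gated chloride channel Ano1 (4.23). Aqp1, a water channel of small ducts and of capillaries, was at 45.9, 0, 0 and 31.9 CPM. It did not pass against the other kept cells (0.59), and it was lower than in endothelial cells, where it fell by 3.8. Cftr, which chose the cells, was counted in 5 of 79 duct-like cells and 5 of 34 hormone-rich cells.

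Most of the secreted and surface proteins rose. Of 23 tested, 21 rose and 2 did not pass (median 2.75), and in the duct-like cells 24 of 24 rose (median 3.89). Clu, which encodes the secreted chaperone clusterin, was at 8618, 10082, 10792 and 10838 CPM in the duct-like cells against 72.3, 69.7, 77.8 and 95 in the other kept cells. It rose by 5.15 ± 0.29 in the members (edgeR adjusted p = 1.15e-08) and by 5.76 ± 0.18 in the duct-like cells. Its levels in the 4 libraries lay closer together than those of the keratins. Lcn2, a siderophore-binding protein (8.39), Tff2 (8.65) and Fxyd3 (4.06), a regulator of the sodium pump, rose, while the annexin Anxa5 (2.04), S100a11 (1.86) and the tetraspanin Tspan8 (2.45) rose by less. Tm4sf4 had a log2 fold change of 0.37 in the members and did not pass, and it rose by 0.76 in the duct-like cells.

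Ciliary and signalling lists were read next. Of 10 primary cilium genes, 5 rose and 5 did not pass, led in level by Bicc1, an RNA-binding protein linked to cystic disease, at 793, 584, 1558 and 924 CPM (3.62). Pkhd1, the gene of recessive polycystic disease, rose by 4.34 and Dcdc2a by 3.29. Of 13 Notch pathway genes, 4 rose, 3 fell and 6 did not pass (median -0.19), with Notch2 (4.24), the ligand Jag1 (1.94) and Notch1 (1.25) among those that rose. Against endothelial cells 6 of the 9 tested Notch genes were lower and 3 did not pass, with Notch1 at a log2 fold change of -2.23. Of 13 genes for YAP, TAZ, TEAD factors and their targets, 9 rose and 1 fell (median 1.61), with Yap1 (3.03), Wwtr1 (1.83), Tead2 (3.53), Ajuba (4.95) and Ccn1 (2.66), but against endothelial cells 1 of 10 was higher and 7 were lower.

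Genes of endocrine progenitors did not rise as a group against the other kept cells. Most of those are endocrine cells, and the insulin limit barred beta cells from the members. Falls of genes that mature endocrine cells also express, such as Neurod1 and Nkx6-1, therefore say nothing of progenitor character. Of 9 tested, 2 rose, 4 fell and 3 did not pass (median -0.74), and in the duct-like cells 2 rose, 6 fell and 1 did not pass (median -5.65). Both that rose act outside the endocrine lineage as well: Sox4 (659, 414, 1224 and 657 CPM; 2.02) and Gadd45a (1.29). Neurog3, the factor that starts endocrine differentiation, had 0 UMIs in the 79 duct-like cells and 2, 4, 6 and 1 UMIs in the hormone-rich cells. Insm1 (-1.88), Neurod1 (-2.79) and Nkx6-1 (-3.97) fell. Of 12 proliferation genes, 6 fell and 6 did not pass.

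Immune and stress genes were compared in the same way. MHC class II genes were lower, with 5 of 7 called, as for Cd74 (-3.75) and H2-Aa (-6.27). The other kept cells include those with Ptprc, which the rule barred from the members. The 14 MHC class I and interferon genes had a median of -0.10 against the other kept cells and a median of -2.56 against endothelial cells, where all 14 were lower, B2m by -3.13 and H2-K1 by -1.21. Of 9 acute phase and chemokine genes tested, 6 rose and 1 fell, with ceruloplasmin (Cp; 482, 318, 556 and 529 CPM) at 5.98 and Cxcl16 at 3.15. Of 20 genes of dissociation stress, which enzymatic digestion of tissue is known to induce, 7 rose, 1 fell and 12 did not pass (median 0.39). The 3 metallothioneins did not pass against the other kept cells, and both that were tested were higher than in endothelial cells.

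Markers of other cell types were summed over the duct-like cells. Genes named at 0 are examples from each list, and other genes of the list held the UMIs. Except for the pan-endocrine genes, no sum of other cells is set beside them, so free RNA cannot be told from expression here. Acinar markers, 20 genes, gave 19, 16, 0 and 16 UMIs, or 62.3, 118, 0 and 34.0 CPM, with 9 of the 20 at 0, among them Ptf1a, Cel and Cpa1. Mesothelial markers gave 16, 15, 1 and 35 UMIs, with Wt1, Upk1b and Muc16 at 0. Endothelial markers gave 9, 3, 0 and 10 UMIs, with Kdr, Emcn and Cdh5 at 0, the last by rule. Immune markers gave 2, 1, 0 and 3 UMIs with 8 of 10 at 0, and stromal markers 24, 5, 0 and 15 with 5 of 8 at 0, Col1a1 among them. Schwann markers gave 41, 10, 4 and 38 UMIs, most of them of Mbp, with Sox10 at 0. Tuft cell markers gave 20, 1, 0 and 13 UMIs, with Pou2f3 and Avil at 0. Pan-endocrine genes were at 223, 288, 389 and 291 CPM, against 15630, 15376, 19469 and 14516 CPM in the hormone-rich kind.

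The hormone-rich cells carried the delta cell genes Sst at 159998, 147173, 193468 and 108802 CPM and Rbp4 at 5538, 4119, 6661 and 3313 CPM. In the duct-like cells these genes were at 68.8, 126, 167 and 113 CPM and at 0, 7.39, 0 and 2.1 CPM. Hhex, listed as a delta marker but also a factor of the duct, was at 157, 163, 612 and 374 CPM in the duct-like cells. It rose there by 2.89 on the log2 scale. The mix of both kinds differed between libraries, with the hormone-rich kind at 13 of 37, 11 of 21, 7 of 10 and 3 of 45 members. Both kinds enter every sum over all members, and the part of the mix in the ratios was not tested.

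Whether the knock-in went with another duct transcriptome was addressed within each diet by the ratio of HH over WT, among genes with 30 or more UMIs over both sums. In SCD, 298 of 3726 genes (8.0%) lay past 2-fold over all members, 52 higher and 246 lower in HH, with a median log2 ratio of -0.20 over all genes. Leaving hormone and mitochondrial genes out of the totals gave 79 higher and 160 lower. Over the duct-like cells, 24 of WT and 10 of HH, 172 of 2460 genes (6.99%) lay past 2-fold, 47 higher and 125 lower, with a median of -0.09, and for 11 genes the whole interval did. Of the duct lists, 0 of 13 keratin and junction genes and 3 of 20 secreted and surface genes lay past it. The summed keratin and junction list had a log2 ratio of 0.20 (0.14 to 0.27) although the median of its genes was -0.09, the secreted and surface list 0.23 and the duct transcription factors -0.14 (-0.40 to 0.11).

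Single genes lay farther from 0 in duct-like cells on chow, where HH gave 10 cells. Ly6d, a surface protein of epithelia, had 3 UMIs in 3 WT cells and 73 in 4 HH cells, a log2 ratio of 5.78 (4.17 to 8.09). Cxcl1, a neutrophil chemokine, had 48 UMIs in 6 WT cells and 178 in 7 HH cells, or 157 and 1316 CPM (3.06; 2.60 to 3.56). Dmbt1 had 69 and 142 UMIs, from 3 cells in each library (2.21). Cd74, the MHC class II invariant chain, had 7 and 24 UMIs (2.95; 1.69 to 4.41). In the other direction, Krt17, a keratin of stressed and basal epithelia, had 68 UMIs in WT and 1 in HH (-4.91; -10.24 to -2.39). Lcn2 had 95 and 12 UMIs, or 311 and 88.7 CPM (-1.81; -2.81 to -0.94), and Tgfb2, a growth factor, was lower as well (-1.63; -3.02 to -0.48).

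In HFD, 1187 of 3465 genes (34.3%) lay past 2-fold over all members, 1019 higher and 168 lower in HH, with a median of 0.48. Without hormone and mitochondrial genes in the totals the split was 703 higher and 334 lower. With 4 or more rule genes it turned, at 138 higher and 968 lower with a median of -0.45, where WT HFD gave 2 cells. The hormone-rich kind made up 7 of 10 members in WT HFD and 3 of 45 in HH HFD, and its part in these ratios was not tested. Among the lower genes, Rbp4 went from 5567 to 235 CPM (-4.57), Pax6 from 356 to 15.8 (-4.50) and Nnat from 292 to 11.9 (-4.63), and each of these genes had at most 1 UMI in the duct-like cells of any library. Among the higher genes, the calcium-binding protein gene S100a6 was at 9.14 and 504 CPM, the duct factor Onecut2 at 9.14 and 296 and the gap junction gene Gja1 at 9.14 and 207. Within the duct-like kind 222 of 2898 genes lay past 2-fold higher in HH and 499 lower, with a median of -0.18. The 3 cells of WT HFD were too shallow to read this split. A 0 there is read as 167 CPM, the interval excluded 0 for 104 of the 2898 genes, and it lay past 2-fold for 5. Whether duct-like cells of both genotypes differed on HFD could therefore not be told for most genes at this depth.

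Diets were compared within the duct-like cells of each genotype, a comparison added after the levels were seen and made without a test. HH gave 10 cells on SCD and 42 on HFD, and WT gave 24 and 3, of which 2 had doublet scores among the highest. Of the 135295 UMIs of the HH SCD sum, 35654, 24776 and 21864 came from single cells. The intervals do not cover the spread between cells. In HH, 622 of 3478 genes (17.9%) lay past 2-fold, 443 higher and 179 lower in HFD, with a median log2 ratio of 0.20. Among genes with 100 or more UMIs the split turned, with 41 higher and 52 lower. In WT 429 of 1844 (23.3%) did, 151 higher and 278 lower, with a median of 0.06. The 12 highest and 12 lowest ratios in HH, which chose the genes, are read beside those of WT, which did not. In WT, 11 of the 12 higher genes had the same sign, and the interval of 8 of them excluded 0, as it did on the higher side for 80 of all 1844 genes (4.34%) and on the lower side for 78 (4.23%). Of the 12 lower genes, 4 had a UMI in the 3 WT HFD cells and were lower there. The other 8 were at 0, and with 0 read as 3 counts 6 of these lay below WT SCD, while Cxcl1 and Gm42031 could not be ordered.

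The genes higher on HFD were led by Id1, Socs3 and C3 and included Tsc22d3, Txnip and Fos. Txnip, an inhibitor of thioredoxin and of glucose uptake (chr3:96557957-96561883), was at 167, 229, 1168 and 1668 CPM, which is 7.28-fold higher on HFD in HH and 6.99-fold in WT. Tsc22d3, a glucocorticoid-induced gene, was at 125, 103, 612 and 835 CPM (log2 ratio 3.01 in HH and 2.30 in WT). The immediate early gene Fos was at 954, 717, 3783 and 4524 CPM, 6.31-fold higher in HH (log2 2.66; 2.36 to 2.97) and with a log2 ratio of 1.99 in WT. In these 3 genes both HFD libraries were higher than both SCD libraries. The genes were chosen on the HH libraries, and the share of all genes in this order was not counted. Id1, an inhibitor of basic helix-loop-helix factors, had 1 UMI on SCD and 168 on HFD in HH (5.59; 3.10 to 10.91), where 21 of 42 HFD cells held it and the 3 richest held 63.7% of its UMIs, while in WT its interval included 0 (1.03; -1.35 to 2.74). The cytokine signalling inhibitor Socs3 was at 55.7, 14.8, 389 and 295 CPM (4.32 and 2.80), complement C3 at 85.2, 22.2, 445 and 189 (3.09 and 2.38) and Acot1, a fatty acyl-CoA thioesterase, at 42.6, 37.0, 278 and 170 (2.20 and 2.71).

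The genes lower on HFD were led by the chemokines Cxcl1 and Cxcl2 and included Plaur, F3 and Cldn4. Cxcl2, a neutrophil chemokine, was at 1282 and 1515 CPM on SCD and had 0 UMIs in both HFD libraries, at least 238-fold lower in HH and at least 7.68-fold lower in WT against a floor of 3 counts per library. Cxcl1 was at 157, 1316, 0 and 4.25 CPM, with 178 and 2 UMIs in HH (-8.27; -11.33 to -6.40). Plaur, the urokinase receptor (chr7:24462484-24475968), was at 1521, 1900, 55.6 and 44.6 CPM, 42.6-fold lower on HFD in HH. F3, tissue factor (chr3:121723537-121735048), was at 1682, 2084, 167 and 85 CPM, 24.5-fold lower in HH and with a log2 ratio of -3.33 (-5.62 to -1.78) in WT. Cldn4 (chr5:134945119-134946934), a tight junction claudin that tightens the paracellular path, was at 2039, 1922, 334 and 80.8 CPM, 23.8-fold lower in HH and with a log2 ratio of -2.61 (-4.06 to -1.48) in WT. For Cxcl2, Plaur, F3 and Cldn4 both HFD libraries lay below both SCD libraries, with 0 read as 3 counts. The HH libraries chose these genes, and the share of all genes in this order was not counted, here or for the genes below. For Cxcl1, 3 counts in WT HFD would be 167 CPM, above its level in WT SCD, so these libraries could not be ordered at this depth.

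The AP-1 subunit Fosl1 (302, 377, 0 and 6.38 CPM), Phlda1 (318, 562, 0 and 19.1), the cornified envelope gene Sprr1a (577, 421, 0 and 14.9), Neurl3 (311, 303, 0 and 17) and the ERK phosphatase Dusp5 (521, 488, 55.6 and 36.1) followed the same order. So did 2 genes named for their level after their values were seen, the growth factor Hbegf at 3170, 3481, 612 and 795 CPM and the epithelial 14-3-3 gene Sfn at 2560, 1715, 278 and 196. On SCD some of these counts sat in few cells: in WT SCD the 3 richest cells held 86.4% of the Sprr1a UMIs and 83.6% of those of Cxcl2. Clu, by contrast, had a log2 ratio of 0.10 in HH and 0.32 in WT. The summed keratin and junction list was lower on HFD in HH (-1.41; -1.48 to -1.34) and in WT (-1.08; -1.31 to -0.86), with 20330, 23401, 9623 and 8802 CPM. Its gene medians lay nearer to 0, at -0.55 in HH and -0.76 in WT, and 5 of 12 and 4 of 13 genes lay past 2-fold lower, with Krt8, Krt18 and Cldn4 among the abundant ones. The acute phase and chemokine genes did not move one way: in HH 3 of 8 lay past 2-fold higher and 3 lower, with a median of 0.0093. Their sum was lower in HH (-1.29; -1.45 to -1.13), and it holds Cxcl1 and Cxcl2, which were chosen as the lowest genes. The duct transcription factors had a log2 ratio of 0.59 (0.36 to 0.83) in HH and one whose interval included 0 in WT (-0.05; -0.70 to 0.53), where the gene median was 0.12, and the difference was not tested. The dissociation stress list, at 19677, 18493, 22696 and 24408 CPM, had log2 ratios of 0.40 (0.34 to 0.46) in HH and 0.21 (0.06 to 0.35) in WT.

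**Figure D4:**
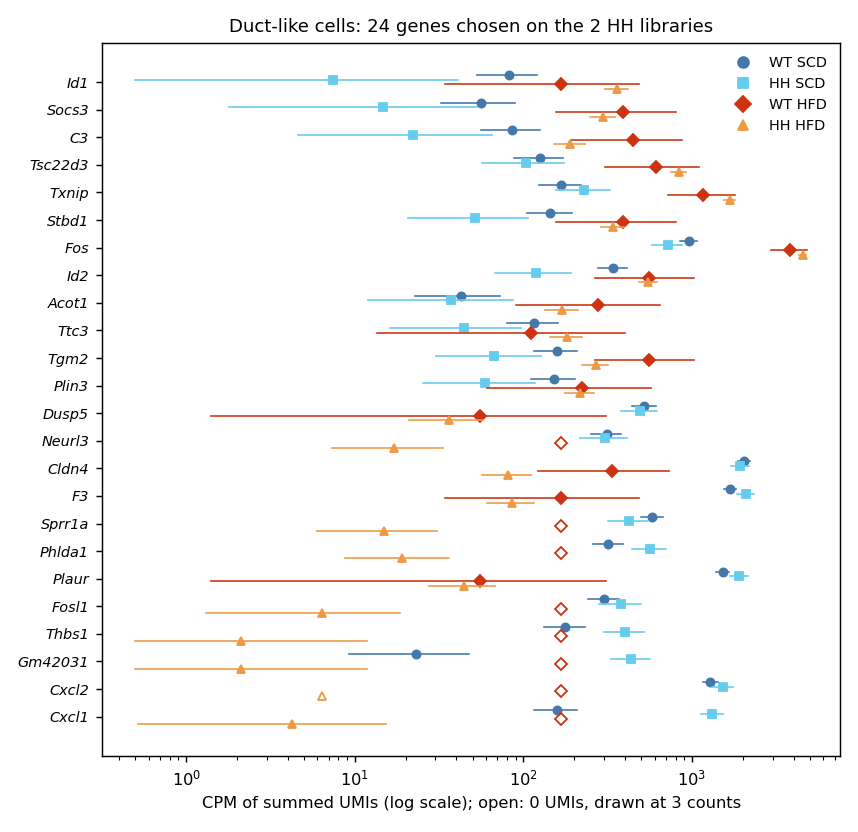
Summed levels (CPM, log axis) in duct-like cells of the 12 genes with the highest and the 12 with the lowest ratio of HFD over SCD in HH, with 1 point for each of the 4 libraries, lines for exact Poisson intervals and open points for 0 UMIs, drawn at 3 counts. Txnip goes from 167 and 229 CPM on SCD to 1168 and 1668 on HFD, and Plaur from 1521 and 1900 to 55.6 and 44.6.

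The same genes were read in the endothelial and insulin-rich cells of the same libraries, which are not independent of the duct-like cells in library, diet or age. Of the 12 higher genes, 4 in WT and 5 in HH were also higher on HFD in endothelial cells with an interval that excluded 0, and of the 12 lower genes, 7 and 8 were lower there. Over all genes with 30 or more UMIs in endothelial cells, 18.7% in WT and 17.5% in HH were higher by that criterion and 12.8% and 10.8% lower. In insulin-rich cells, 2 and 4 of the higher genes and 8 and 9 of the lower genes did so, against 24.7% and 24.7% of all genes there on the higher side and 23.2% and 30.4% on the lower side. The counts of higher genes in insulin-rich cells thus lay near the shares over all genes. Txnip was at 242, 231, 901 and 843 CPM in endothelial cells (log2 ratio 1.90 in WT and 1.87 in HH). Fos was at 957, 806, 1756 and 1668 CPM (0.88 and 1.05), Plaur at 188, 153, 65.8 and 63.0 (-1.52 and -1.28) and Dusp5 at 161, 141, 27.1 and 23.3 (-2.57 and -2.60). Thbs1, which had 54 and 1 UMIs in the duct-like cells of HH SCD and HH HFD, was at 817, 858, 767 and 677 CPM in endothelial cells (-0.09 and -0.34). The dissociation stress list was at 19146, 17766, 17772 and 15750 CPM in endothelial cells. The keratin and junction list was lower on HFD outside the duct-like cells as well, at 1067, 1021, 604 and 560 CPM in insulin-rich cells and at 2449, 2287, 1673 and 1431 CPM in cells with 5% or more Sst UMIs. The difference between the classes was not tested.

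**Figure D5:**
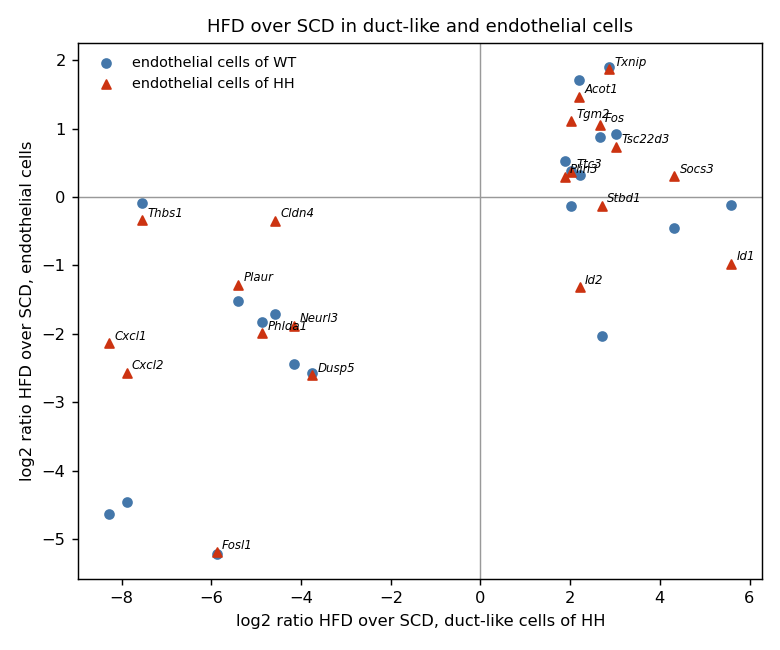
Log2 ratio of HFD over SCD in duct-like cells of HH (x axis) against the same ratio in endothelial cells of WT and HH (y axis) for the genes with the highest and lowest duct-like ratios, leaving out genes with 3 or fewer counts in endothelial cells. Txnip and Fos are above 0 and Plaur and Dusp5 below 0 in both classes, while Thbs1 is at -7.55 in duct-like cells and at -0.09 and -0.34 in endothelial cells.

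Because several genes lower on HFD moved together, their promoters were read for the letters of AP-1 (TGANTCA, which reads alike on both strands) and NF-kB (GGGA and TTCC with any 2 bases between them, or GGAA and TCCC so spaced on the other strand). Both motifs were chosen after the genes were seen. In windows from 250 bases before to 50 bases after the start (RefSeq, GRCm38.p6), 9 of the 12 lower genes had a sequence, and Thbs1, Fosl1 and Phlda1 had none. AP-1 letters were in 4 of the 9 (Plaur, Sprr1a, F3 and Cldn4) and NF-kB letters in 3 (Cxcl1, Cxcl2 and Neurl3), while of the 12 higher genes 10 had a sequence (Id1 and Tgm2 had none) and 0 held either. Of the genes named as highest in the members against other kept cells, 8 had a sequence, 2 of these (Ptgds and Crp) held AP-1 letters and 0 held NF-kB letters. Over all promoters, 2144 of 27025 (7.93%) held AP-1 letters and 387 (1.43%) held NF-kB letters. A match is a run of letters and says nothing of binding. The 250 bases before the start are printed for 5 of the lower genes that carry the diet difference, 5′ to 3′ on the gene's strand, with the matches in capitals. In Cxcl1 and in Cxcl2 the capitals hold a pair of overlapping matches.
F3 (chr3:121723287-121723536, plus strand): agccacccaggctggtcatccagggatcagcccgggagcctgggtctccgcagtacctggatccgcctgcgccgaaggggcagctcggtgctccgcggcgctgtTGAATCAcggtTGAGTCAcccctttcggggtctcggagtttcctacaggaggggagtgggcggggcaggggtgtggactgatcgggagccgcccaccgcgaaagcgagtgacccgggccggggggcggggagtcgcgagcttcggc
Cldn4 (chr5:134946935-134947184, minus strand): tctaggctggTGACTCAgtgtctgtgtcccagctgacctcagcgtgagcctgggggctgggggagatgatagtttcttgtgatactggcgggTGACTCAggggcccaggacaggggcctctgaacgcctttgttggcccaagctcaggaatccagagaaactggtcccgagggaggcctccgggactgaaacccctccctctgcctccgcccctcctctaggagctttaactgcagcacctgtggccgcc
Plaur (chr7:24462233-24462482, plus strand): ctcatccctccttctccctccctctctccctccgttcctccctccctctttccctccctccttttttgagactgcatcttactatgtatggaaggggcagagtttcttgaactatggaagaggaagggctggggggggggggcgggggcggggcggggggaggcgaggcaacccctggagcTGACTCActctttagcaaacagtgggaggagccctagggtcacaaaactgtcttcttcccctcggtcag
Cxcl1 (chr5:90890995-90891244, plus strand): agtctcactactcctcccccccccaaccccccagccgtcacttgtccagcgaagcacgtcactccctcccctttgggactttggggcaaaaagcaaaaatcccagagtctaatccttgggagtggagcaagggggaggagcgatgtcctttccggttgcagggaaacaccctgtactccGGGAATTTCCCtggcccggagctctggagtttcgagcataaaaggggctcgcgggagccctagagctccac
Cxcl2 (chr5:90903649-90903898, plus strand): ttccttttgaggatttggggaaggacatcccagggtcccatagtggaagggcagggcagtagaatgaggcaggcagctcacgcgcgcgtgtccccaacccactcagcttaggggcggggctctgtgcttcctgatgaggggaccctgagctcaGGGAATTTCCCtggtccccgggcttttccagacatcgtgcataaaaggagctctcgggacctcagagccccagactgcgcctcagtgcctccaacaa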

How the data were processed

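Single-cell RNA was captured with 10x 3′ chemistry from the pooled islets of each of 4 groups. Per the submitters' processing notes the authors ran Cell Ranger 6.0 on mm10 (GRCm38); the annotation release is not given in the sources used here. The deposited matrices hold raw UMI counts as whole numbers, 1 row per gene, with no normalization, and no ambient RNA was subtracted here. The members and lists were chosen with earlier results of these data known.

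Kept cells had under 10% mitochondrial UMIs, 1000 to 50000 UMIs and 500 or more genes. Counts were summed per library and class and scaled to CPM by the total of each sum. Classes were compared with edgeR 4.0.16 and limma 3.58.1 in R 4.3.3, on genes kept by filterByExpr with TMM scaling, 1 sum per library and class and the library as a block, in libraries with 10 or more cells. A gene was called at an adjusted p under 0.05. The 10 genes of the rule took part in the fit but were not counted. DESeq2 1.42.0 was an alternative. Ratios between libraries had exact conditional binomial intervals, shares Clopper-Pearson intervals and levels exact Poisson intervals, with a floor of 3 counts for 0. A gene counted as past 2-fold had 30 or more UMIs over both sums. Doublets were scored with Scrublet in scanpy 1.11.5 under Python 3.11.15. The steps were tested on simulated data.

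Named genes were the 5 with the highest mean CPM of each list, the 12 highest and 12 lowest fold changes against other kept cells, the 10 highest and 5 lowest against endothelial cells (mean of 50 CPM or more) and the 6 highest and 6 lowest ratios of HH over WT per diet (mean of 100 CPM or more, interval excluding 0, hormones left out), of which the text gives those with a value to describe. Genes of the diet comparison were named by the same rule after the levels were seen, 12 in each direction, and single list genes below the top 5 were also named after their values were seen. Gene positions are those of GENCODE M21 on GRCm38. Other processed files of the study were not used here.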

Additional observations from a re-analysis of the deposited data

Results flagged for a closer look

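The difference between HH and WT took opposite signs in both diets for the share of cells that met the rule, at -0.460 percentage points in SCD and 0.507 in HFD, and for the share of duct-like cells, at -0.400 and 0.685 points. With 1 library per group, whether the diets differ in this was not tested. Over all members, the log2 ratio of HH over WT also changed sign for Lcn2 (-2.25 in SCD and, against a floor of 3 counts because WT HFD held no UMI of it, 2.92 in HFD), Sema3c (-1.56 and 1.18) and Stmn1 (-1.47 and 2.20), and the other way for Nnat (1.39 and -4.63), Pax6 (0.93 and -4.50) and Rbp4 (0.21 and -4.57), again without a test. The hormone-rich kind made up 13 of 37 members in WT SCD, 11 of 21 in HH SCD, 7 of 10 in WT HFD and 3 of 45 in HH HFD, and its part in these ratios was not tested. Within the duct-like cells the log2 ratio for Lcn2 was -1.81 on SCD but 0.41 on HFD, the latter against the floor of 3 counts because the 3 WT HFD cells held no UMI of it, and this change of sign was not tested.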

How the results depend on the processing

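No paired analysis was possible because each group had 1 library, so that the groups share only replicate number 1, which is a name and pairs nothing. A fit of diet with genotype as a term, which would leave 1 residual degree of freedom, was not run. The library was a block in the comparison of cell classes, and without it 1796 genes were higher and 2414 lower in members than in other kept cells, and 1536 and 1758 against endothelial cells. Leaving out each library in turn gave 821 to 1906 higher and 1042 to 2335 lower genes against other kept cells, 1086 to 1669 and 1397 to 1766 against endothelial cells, and 1357 to 1879 and 2276 to 2899 for duct-like against other kept cells. Among duct-like cells DESeq2 gave 2216 lower genes against other kept cells and 1029 higher against endothelial cells, and without a filter on low counts 2812 genes were lower in members than in endothelial cells. Restricting members to the duct-like kind raised the lower genes to 3656.

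The difference in share over cells that are not insulin-rich was -1.49 points in SCD and 1.44 in HFD. Genes past 2-fold in SCD over all members (298 of 3726, 8.0%) numbered 176 of 1280 (13.8%) with under 1% hormone UMIs, 28 of 984 (2.85%) with 100 or more UMIs and 172 of 2460 (6.99%) in duct-like cells. In HFD (1187 of 3465, 34.3%) they numbered 451 of 1721 (26.2%) with the study's filter on cells, 298 of 874 (34.1%) with 100 or more UMIs and 721 of 2898 (24.9%) in duct-like cells, so part of each fall in number is fewer genes counted. In duct-like cells in SCD they numbered 85 of 1151 (7.38%) with the study's filter, 275 of 2460 (11.2%) with equal weight per cell and 13 of 625 (2.08%) with 100 or more UMIs, and for HFD over SCD in HH (622 of 3478) 249 of 1553 (16.0%) with the study's filter and 93 of 922 (10.1%) with 100 or more UMIs. Unthinned, 54.1%, 57.1% and 86.7% of members held Wfdc2 in WT SCD, HH SCD and HH HFD, and 55.6% did at 2000 UMIs in HH HFD.

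Signs reversed for Gm20186 in SCD (0.15 with under 1% hormone UMIs) and for list medians of HH over WT in HFD. With 4 or more rule genes these were -0.30 for keratins, -0.029 for secreted proteins, -0.31 for Notch, -0.27 for YAP and -0.28 for acute phase genes, and in duct-like cells -0.0098 for keratins, -0.0008 for secreted proteins, -0.42 for cilium, -0.34 for YAP and -0.14 for acute phase genes. In duct-like cells the medians of duct transcription factors (-0.028), MHC class I and interferon (-1.13) and dissociation stress genes (-0.16) were also below 0, against medians above 0 over all members whose own intervals over the list's genes included 0. The Notch median in SCD was -0.10 over all members, and the keratin median of HFD over SCD in HH was 0.17 over all members. Behind these HFD values stand WT HFD sums of 12145 UMIs from 2 cells and 17977 UMIs from 3 cells in turn, where 0 is read as 3 counts. In duct-like cells the summed MHC class I and interferon genes had 94 UMIs in WT HFD and a log2 ratio of -1.22 (-1.53 to -0.90), and the summed YAP genes had 32 and -0.97 (-1.49 to -0.40). The cause of the reversals was not tested. Of the remaining values, 127 for single genes and lists and 26 for main results moved past the criterion, while 594 and 93 in turn moved by less. HH over WT in HFD with under 1% hormone UMIs gave no value, because WT HFD had 0 such cells, and edgeR could not be fitted there. With 10 and 3 cells in the smallest duct-like sums, depth limits the ratios most in WT HFD. There, 8 of the 12 genes chosen as lower on HFD were at 0, as were other genes outside that list.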

Other observations

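Duct-like cells differed among themselves within a library. The dispersion index, the variance of a gene's counts over cells against that expected from depth alone, was 75.0 for Dmbt1 in HH HFD, where 13 of 42 cells held its 557 UMIs and the 3 richest cells held 77.6% of them, while the median was 1.32 over 676 genes. In WT SCD the index was 83.3 for Sprr1a, whose 176 UMIs lay in 6 of 24 cells, 66.5 for Apoe, an apolipoprotein counted in 22 of 24 cells, and 41.5 for Cxcl2, counted in 12, against a median of 1.74 over 413 genes. Clu, in all 24 cells, had an index of 15.5. These values describe single libraries and have no replicate check.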
